A study of Mus musculus with 24 samples.

Results

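The hypothalamus libraries of this overfeeding study came from mice killed in July and in September of one year, and both diets and both time points were represented in each month. Libraries were assigned to a cohort by the euthanasia date in the sample labels. The July cohort held 12 libraries and the September cohort 11, together 23 of the 24 libraries of the series. One September library, Control d14 replicate 4, was left out of the comparison. The study excluded a Control d14 mouse for poor RNA quality without naming its library, and the labels give this one a RIN (RNA integrity number) of 9.8 and the file 10922271 counts.

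All animals were male C57BL6/J mice aged 18 weeks on ad libitum chow, fitted with a gastric catheter and housed singly. ExpOF mice (experimental overfeeding) received a liquid diet through the catheter for 14 days, and Control mice received sterile water. Hypothalami were taken on the last day of overfeeding (d14) or 3 days into the recovery that followed (d14+3, day 17 in the labels). The d14 mice were killed on 13 July or 21 September and the d14+3 mice on 16 July or 24 September. Control d14 held 3 July and 2 September libraries, and ExpOF d14, Control d14+3 and ExpOF d14+3 each held 3 and 3. RNA was extracted in 2 rounds that crossed the months, with 7 July and 5 September libraries in round 1 and 5 July and 6 September libraries in round 2. The light cycle and the room temperature were the same throughout, so the months differed in calendar date and in everything that came with a separate run of the experiment, and these cannot be told apart here.

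Several gene groups are known to follow season, time of day or dissection in the hypothalamus. Core clock genes cycle over the day through E-box elements that the BMAL1 and CLOCK proteins bind, so their levels depend on the hour of sampling. Day length reaches the hypothalamus through melatonin, thyrotropin and the deiodinases that set the local level of active thyroid hormone, mainly in the tanycytes that line the third ventricle. A hypothalamic block can also carry neighbouring tissue: choroid plexus, which secretes cerebrospinal fluid and the carrier protein transthyretin, leptomeninges with their collagen-producing fibroblasts and resident macrophages, and pituitary. In bulk tissue, more cells of a type and more RNA per cell cannot be told apart.

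Depth and RNA quality overlapped between the cohorts. Total counts ranged from 8928182 to 34848437 in July (median 21887213) and from 18375849 to 31860266 in September (median 25113317), and log2 totals differed by 0.20 (exact permutation test within groups, two-sided, n = 12 and 11, p = 0.287). RIN was 9.34 ± 0.890 in July (SD, n = 12) and 9.15 ± 0.722 in September (SD, n = 11), a within-group difference of -0.258 (exact permutation test, two-sided, p = 0.427). The RIN difference was -1.5 in Control d14 and lay between -0.2 and 0.567 in the other groups. A pair of libraries stood apart before any test. Control d14 replicate 5 and ExpOF d14+3 replicate 4, both from September and extraction round 2, carried choroid plexus transcripts at levels not seen in the other 21, and results that rest on them are given with and without them.

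No gene differed between the months after adjustment. Among 20102 genes tested with edgeR's quasi-likelihood test, with the diet-by-day group in the fit, 0 passed a Benjamini-Hochberg adjusted p of 0.05 (percent called 0), and the DESeq2 Wald test on the same model also called 0. At an unadjusted p under 0.05 the edgeR test listed 796 genes, or 3.96% of those tested, 477 of them higher in September (2.37%) and 319 lower (1.59%). DESeq2 listed 818 at that unadjusted level. The median absolute log2 fold change over all genes was 0.051. The 95% interval of the September-to-July difference lay within 0.5 log2 units of 0 for 77.0% of all tested genes and for 96.8% of the 14173 genes averaging at least 50 counts.

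**Figure D1:**
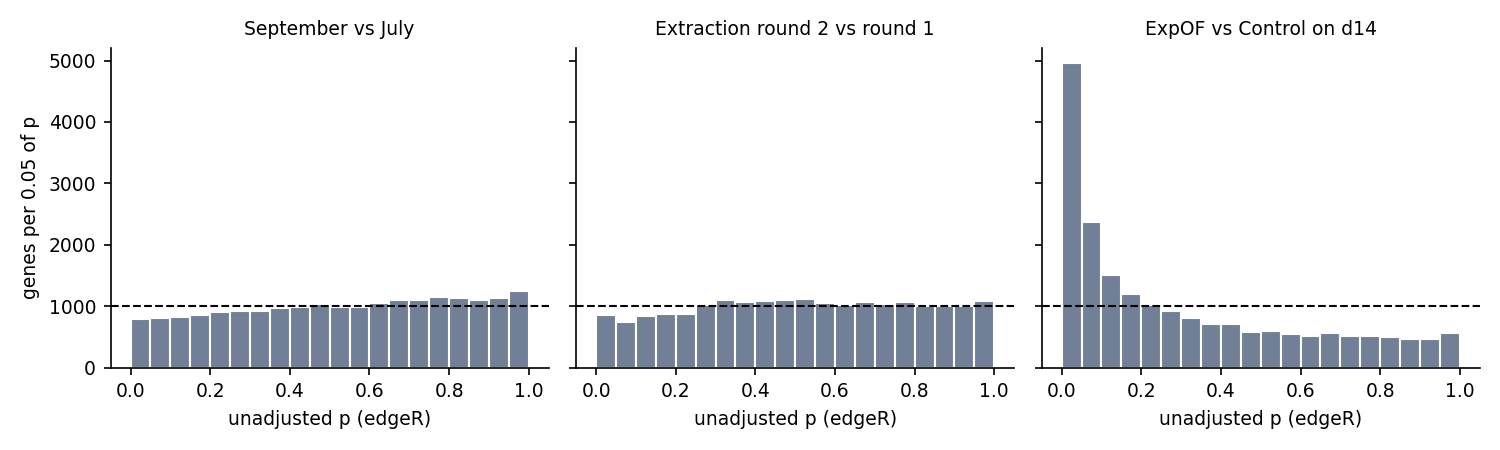
Number of genes per 0.05-wide bin of unadjusted edgeR p (20102 genes in each panel), with a dashed line at an even spread over the bins. For September against July, 796 genes fall in the lowest bin, which is below the line, as do the 858 for the extraction rounds, whereas 4960 genes fall in the lowest bin for ExpOF against Control on d14.

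The same held inside each diet-by-day group. With edgeR, September against July gave 0 adjusted calls in Control d14 (924 genes at an unadjusted p under 0.05, 4.60%), ExpOF d14 (201 genes, 1.00%), Control d14+3 (718 genes, 3.57%) and ExpOF d14+3 (732 genes, 3.64%), and DESeq2 gave 0 in all 4. In Control d14, leaving out replicate 1 (September, extraction round 1) raised the number of adjusted calls from 0 to 34. That fit set 3 July libraries against a single September one, replicate 5, which is one of the pair rich in choroid plexus transcripts, and the lone library was assumed to vary like the others. The difference between the cohorts was itself compared between diets and between days. Neither interaction gave an adjusted call with edgeR (625 genes unadjusted for diet, 3.11%, and 564 for day, 2.81%) or with DESeq2 (592 and 496 unadjusted). The first 4 principal components did not separate the months by an exact permutation test within groups (two-sided, adjusted p of 0.994, 0.428, 0.590 and 0.590 over the 4 components, n = 12 and 11). When components were taken from the 500 most variable genes, the second did separate them (exact permutation test, adjusted p = 0.0428).

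Clock genes differed between the months by 0.12 log2 units at most. Of 23 core clock genes, 0 passed the adjusted or the unadjusted threshold, their log2 fold changes ran from -0.07 to 0.12 with a median of 0.01, and all 23 intervals lay within 0.5 log2 units of 0, 20 of them within 0.25. Dbp, an output gene with one of the widest daily swings, ranged from 29.1 to 66.1 CPM (counts relative to the scaled library total, median 41.7) in July and from 30.7 to 57.2 (median 41.9) in September. Per1, a repressor arm gene, ranged from 52.8 to 84.1 CPM in July and from 53.9 to 75.8 in September. Arntl, which encodes BMAL1, was at a median of 29.1 CPM in July and 31.8 in September. For all 3 genes the ranges of the months overlapped over most of their length. The largest difference belonged to Hlf, a clock-controlled transcription factor, at 0.12 (SE 0.061, edgeR unadjusted p = 0.0521), with medians of 112.0 CPM in July and 132.2 in September.

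The E-box is shown here because it is the element through which BMAL1 and CLOCK act on their targets. CACGTG was searched on both strands from 250 bases before to 50 bases after each transcript start in RefSeq promoters of GRCm38.p6. It occurred in 7.15% of all 32851 promoters. A gene can have several promoters, so a count per gene is not on the same scale as that share. Counted per gene, CACGTG occurred in at least 1 promoter of 5 of the 18 list members with an entry (Bhlhe41, Ciart, Cry1, Per1 and Tef). Stretches of 86 bases around it in 3 of them follow, 5′ to 3′ on the gene's strand, with the E-box in capitals. They lie at chr11:69098743-69098828 on the plus strand (Per1), chr10:85185069-85185154 on the minus strand (Cry1) and chr3:95882299-95882384 on the minus strand (Ciart).
Per1: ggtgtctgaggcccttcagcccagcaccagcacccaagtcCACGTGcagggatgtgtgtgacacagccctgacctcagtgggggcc
Cry1: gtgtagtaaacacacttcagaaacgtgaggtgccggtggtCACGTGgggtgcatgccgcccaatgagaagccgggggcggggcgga
Ciart: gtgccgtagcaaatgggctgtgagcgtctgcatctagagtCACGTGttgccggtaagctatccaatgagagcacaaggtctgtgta
Ciart, a repressor whose window holds the E-box 3 times, differed by -0.07 between the months, Cry1 by -0.04 and Per1 by -0.03 on the log2 scale, all with intervals that include 0.

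Genes of the photoperiod and thyroid hormone pathway were likewise without an adjusted call. Of 17 tested members, 1 was higher and 1 lower at an unadjusted p under 0.05, and the median log2 fold change was -0.01. Dio2, the deiodinase that activates thyroid hormone, differed by 0.17 (SE 0.085, edgeR unadjusted p = 0.0571), with 5.50 to 11.9 CPM in July and 7.23 to 12.9 in September. Eya3, a thyrotroph transcription factor switched on by long days, differed by 0.03, and Tshb, the beta subunit of thyrotropin, by 0.06. Mtnr1a, a melatonin receptor, was the lower member at -0.38 (edgeR unadjusted p = 0.0481) and had medians under 0.5 CPM in both months. The higher member was Ttr, which the choroid plexus shares, described next.

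**Figure D2:**
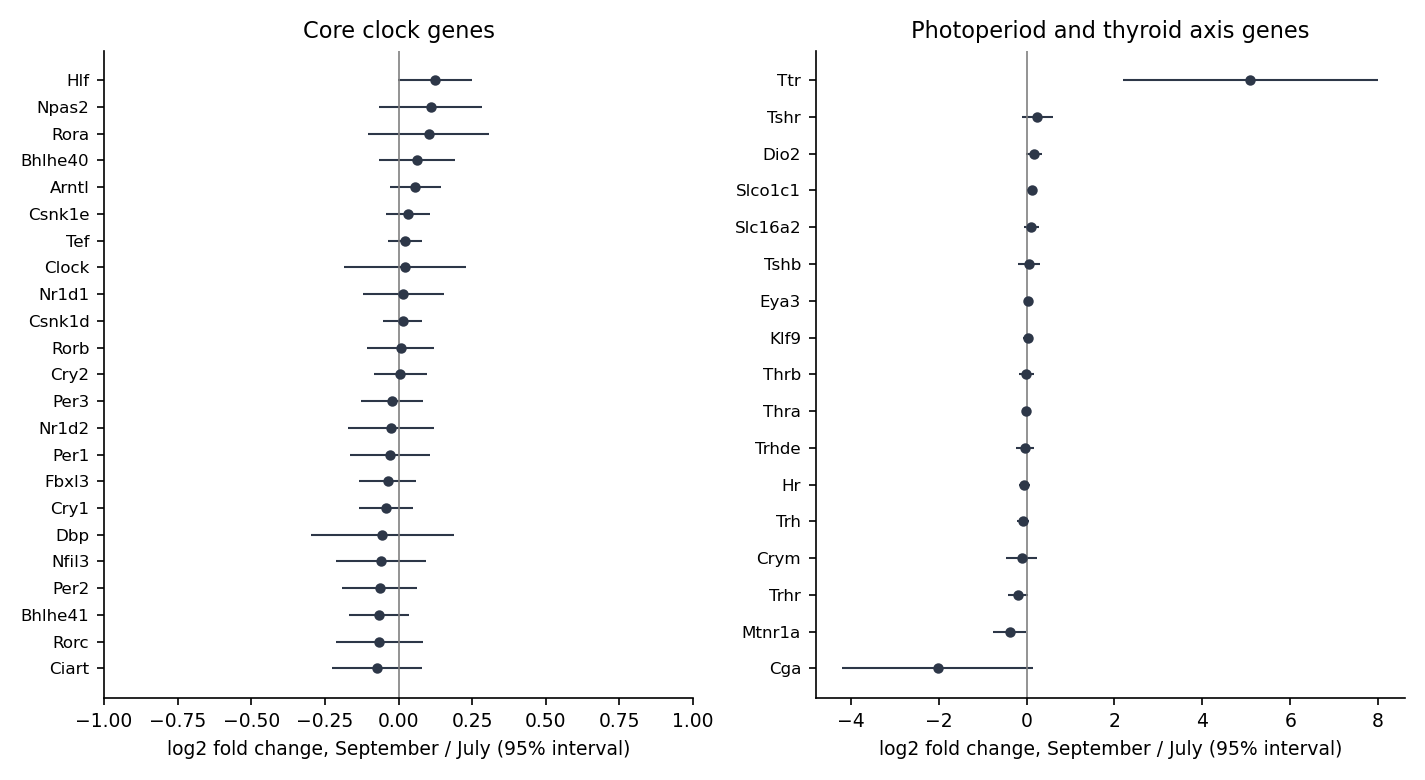
Log2 fold change of September over July with its 95% interval (edgeR, group in the fit, 12 and 11 libraries) for 23 core clock genes on the left and 17 photoperiod and thyroid genes on the right, on different horizontal scales. All clock genes sit between -0.07 and 0.12, and Ttr at 5.09 and Cga at -2.02 are the members with the widest intervals on the right.

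The largest differences between the months were in choroid plexus genes, and 2 libraries carried them. Of 16 tested members, 13 were higher in September at an unadjusted p under 0.05 and 0 were lower, against 2.37% of all genes higher, and their median log2 fold change was 1.20. None passed adjustment. Without Control d14 replicate 5 and ExpOF d14+3 replicate 4, 2 of 16 were higher at that level (2.30% of all genes) and the median was 0.10.

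Ttr, the transthyretin gene, showed the split most plainly. It was at 1.01 to 11.9 CPM in the 12 July libraries (median 2.53), at 1.81 to 29.8 in 9 of the September libraries, and at 2907 in Control d14 replicate 5 and 1197 in ExpOF d14+3 replicate 4. The log2 fold change was 5.09 (SE 1.38, edgeR adjusted p = 1.00) and 1.26 without both libraries. The excluded Control d14 replicate 4, also from September and round 2, held 4422 CPM.

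Kcnj13 (ENSMUSG00000079436, chr1:87386363-87394729), a potassium channel of the choroid plexus epithelium, was at 0 to 0.328 CPM in July and at 0.0328 to 0.461 in 9 September libraries, against 7.73 and 3.16 in the others. Kcne2, a channel subunit of the same epithelium, was at 0.175 to 0.539 CPM in July and 0.164 to 0.682 in the 9 September libraries, against 11.9 and 5.32. The July and September ranges overlapped for both genes once those libraries were set aside, with log2 fold changes of 1.00 for Kcnj13 and 0.28 for Kcne2. Folr1, the folate receptor that loads cerebrospinal fluid, went from 1.71 to -0.41 without them. The summed level of the list was 293 to 388 CPM in July, whereas it reached 4406 in Control d14 replicate 5 and 2069 in ExpOF d14+3 replicate 4. Aqp1, a water channel of the choroid plexus, kept a log2 fold change of 1.20, since it was also at 2.63 to 10.1 CPM in the 5 September libraries of round 1.

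**Figure D3:**
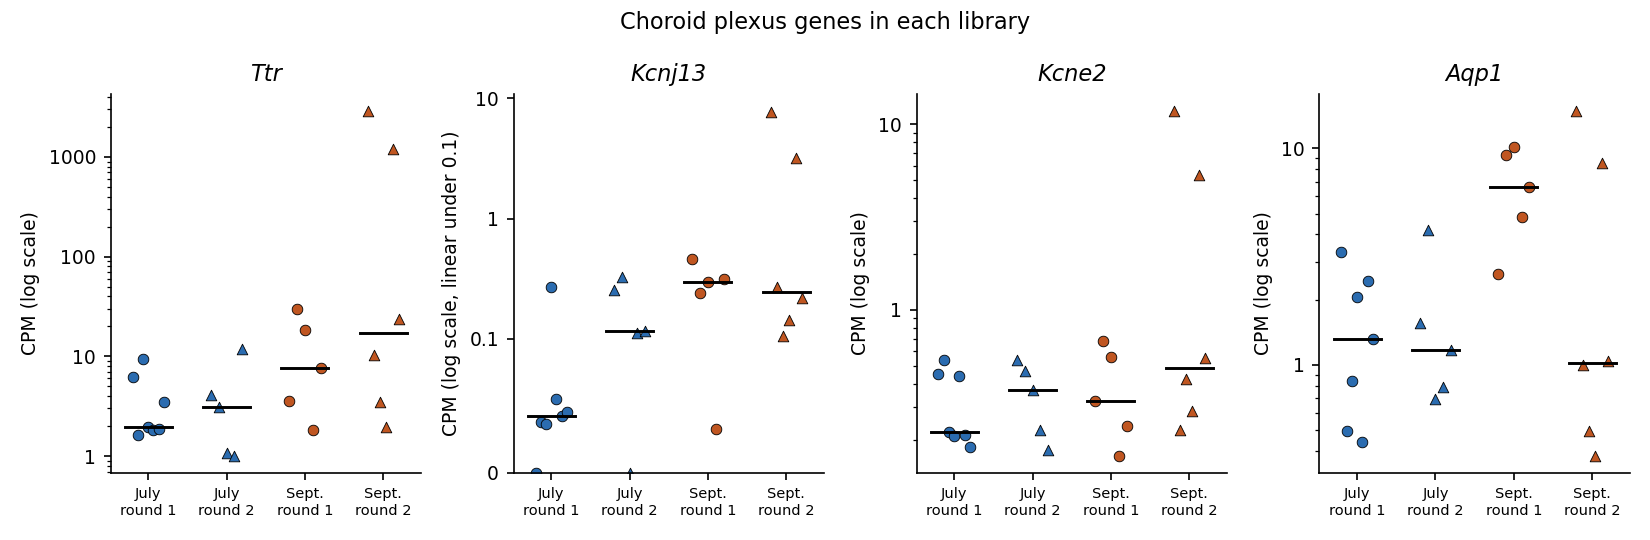
CPM of 4 choroid plexus genes in each of the 23 libraries on log axes (the Kcnj13 axis is linear under 0.1 so that 0 can be shown), by month and extraction round, with the median of each set as a bar. For Ttr, Kcnj13 and Kcne2, 2 September libraries of round 2 stand at 1197 and 2907, 3.16 and 7.73, and 5.32 and 11.9 CPM, above all others.

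Some other lists of neighbouring tissue had medians above 0 in September. Others did not stand out: the median was -0.02 for striatum (15 tested) and 0.002 for cortex and hippocampus (13 tested). Of 20 leptomeningeal genes tested, 12 were higher at an unadjusted p under 0.05 (2.37% of all genes), 0 were lower, and the median log2 fold change was 0.29, with 0 adjusted calls and with 10 of 20 higher and a median of 0.30 when the 2 choroid-rich libraries were left out. Ogn, a small leucine-rich proteoglycan, differed by 0.57 (SE 0.175), Col1a1 and Col1a2, the chains of type I collagen, by 0.75 (SE 0.247) and 0.65 (SE 0.211), and Dcn, decorin, by 0.60 (SE 0.239). The difference for Dcn was 0.37 without ExpOF d14+3 replicate 1, a September library of round 1. Of 7 genes of basal forebrain cholinergic neurons, which lie just rostral to the hypothalamus, all 7 had values above 0 and 2 were higher at the unadjusted level, the transcription factors Gbx1 (0.67) and Lhx8 (0.49), with a median of 0.24 and of 0.32 without the 2 choroid-rich libraries. Of 12 genes of the thalamus, dorsal to the hypothalamus, 11 had values above 0 but 0 passed the unadjusted threshold, with medians of 0.18 and 0.09. Endothelial genes had 5 of 17 members higher at the unadjusted level and inflammatory genes 4 of 14, with medians of 0.10 and 0.12, against 2.37% of all genes. Without the 2 choroid-rich libraries these counts were 3 of 17 and 2 of 14, against 2.30% of all genes, with medians of 0.06 and 0.13. Of 36 interferon response genes 6 were higher and 1 lower, and 7 and 1 without those libraries. Vwf, von Willebrand factor, had medians of 17.7 CPM in July and 26.4 in September, and Cxcl10, an interferon-induced chemokine, 0.177 and 0.296, with overlapping ranges for both.

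Collagen transcripts were not spread evenly over the September libraries. All 5 September libraries of extraction round 1 held more Col1a1 (10.7, 12.9, 16.2, 21.0 and 37.7 CPM) than the 7 July libraries of that round (6.11 to 9.17), whereas in round 2 the July range was 6.07 to 9.44 and the September range 5.85 to 9.81. Months were therefore compared within each round in one fit with group, month, round and the product of month and round, a model chosen after the values of the libraries were seen. In round 1, 66 genes differed at an edgeR adjusted p under 0.05 (0.328% of those tested), all of them higher in September, and 10.8% of genes were listed unadjusted. In round 2, 0 did (696 genes unadjusted, 3.46%), and DESeq2 called 1. The difference between the rounds was tested directly by the interaction, which gave 0 edgeR adjusted calls (smallest adjusted p = 0.0586, 2320 genes unadjusted, 11.5%) and 48 with DESeq2, so edgeR does not establish for any one gene that the rounds differed.

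Of the 66 genes 8 belonged to one of the gene lists, and the 7 with the smallest p were Mrc1, Bgn, Xdh, Col1a1, Muc16, F13a1 and Cped1. Log2 fold changes of the 66 in round 1 ran from 0.37 to 3.68 (median 1.09). Their median in round 2 was -0.11, against -0.0015 over all genes. In round 2, 45 of the 66 were lower in September, and 5 passed an unadjusted p under 0.05 (3.46% of all genes). How many of all genes were lower in round 2 was not counted. For 42 genes the 5 September and 7 July libraries of round 1 did not overlap. For 22 the 5 September libraries lay above all other 18. The 66 were chosen for a difference in these round 1 libraries, so the separation follows largely from the choice. Its share over all genes was not counted. The choroid-rich libraries both belonged to round 2, and without them 53 genes were called in round 1. Analysing the 12 round 1 libraries alone called 19 genes, all higher in September and 14 of them among the 66. All 66 had the same direction in that fit, which is no separate support, since it used the libraries by which the 66 were chosen.

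Of the 20 leptomeningeal genes 6 were among the 66, and 11 were higher and 0 lower at an unadjusted p under 0.05 in round 1 (7.28% of all genes higher there), whereas in round 2, which holds both choroid-rich libraries, 4 were higher and 0 lower (1.69% of all genes higher). The further genes described were picked from the 66 after their values were seen, and say nothing of a cell type as a group. Col1a1 (ENSMUSG00000001506, chr11:94936224-94953042) rose in September by 1.39 on the log2 scale in round 1 (edgeR adjusted p = 0.00844), Col1a2 by 1.09, Col3a1, type III collagen, by 2.68, Dcn by 1.17, Lum, lumican, by 1.48 and Bgn, biglycan, by 0.85. Dcn was at 20.5, 22.9, 27.5, 32.1 and 45.6 CPM in the September libraries of round 1 and at 8.92 to 18.2 in the July ones. In round 2 it was at 10.2 to 19.8 in July and 9.42 to 17.1 in September. The ranges of the months were apart in round 1 and overlapped in round 2. Of the 17 endothelial genes 1 was among the 66, Cdh5, the endothelial cadherin, which rose by 0.40. Basement membrane genes in the set included Col4a1, a type IV collagen chain (0.43), Lamc1, a laminin chain (0.48), and Hspg2, perlecan (0.89).

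Several genes known from macrophages were also among the 66. Mrc1 (ENSMUSG00000026712, chr2:14229392-14332057, mm10), the mannose receptor CD206 that marks macrophages at the borders of the brain, was at 4.43, 5.02, 6.74, 8.91 and 9.75 CPM in the September libraries of round 1 and at 2.05 to 3.13 in the July ones, and rose by 1.45 (SE 0.188, edgeR adjusted p = 0.00215). In round 2 it was at 2.47 to 4.03 in July and 1.59 to 4.26 in September, a log2 difference of -0.32. Siglec1, sialoadhesin of the same cells, was at 1.01 to 3.85 CPM against 0.229 to 0.636 in round 1 and rose by 2.15. F13a1, coagulation factor XIII subunit A, rose by 1.72, Stab1, a scavenger receptor, by 0.50, and Ccl8, a monocyte chemokine, by 3.68. C3, the central complement component, rose by 2.19 and had a median of 40.3 CPM in the September libraries of round 1 (highest 95.3) and 12.6 in the July ones (highest 18.2). When each of the 23 libraries was left out in turn, Mrc1, Col1a1 and Bgn were called in all 23 fits, Ccl8 in 18 and Col3a1 in 13. Only 12 of these libraries belonged to round 1. Other members of the 66 were called in fewer fits, Cebpa and Wfdc17 in 5 each. Each named gene had its lowest September value of round 1 above the July median of that round. This follows largely from picking genes that were higher in those libraries. Of the 18 genes that mark microglia, the resident macrophages of the brain tissue itself, 0 were among the 66. Their median log2 fold change was 0.07 in round 1, 0.11 in round 2 and 0.08 with the rounds together. With the rounds together, 16 were above 0 and 2 below. At an unadjusted p under 0.05, 1 was higher (2.37% of all genes). The macrophage genes above were picked from the 66, so they cannot be set against this list as a group.

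**Figure D4:**
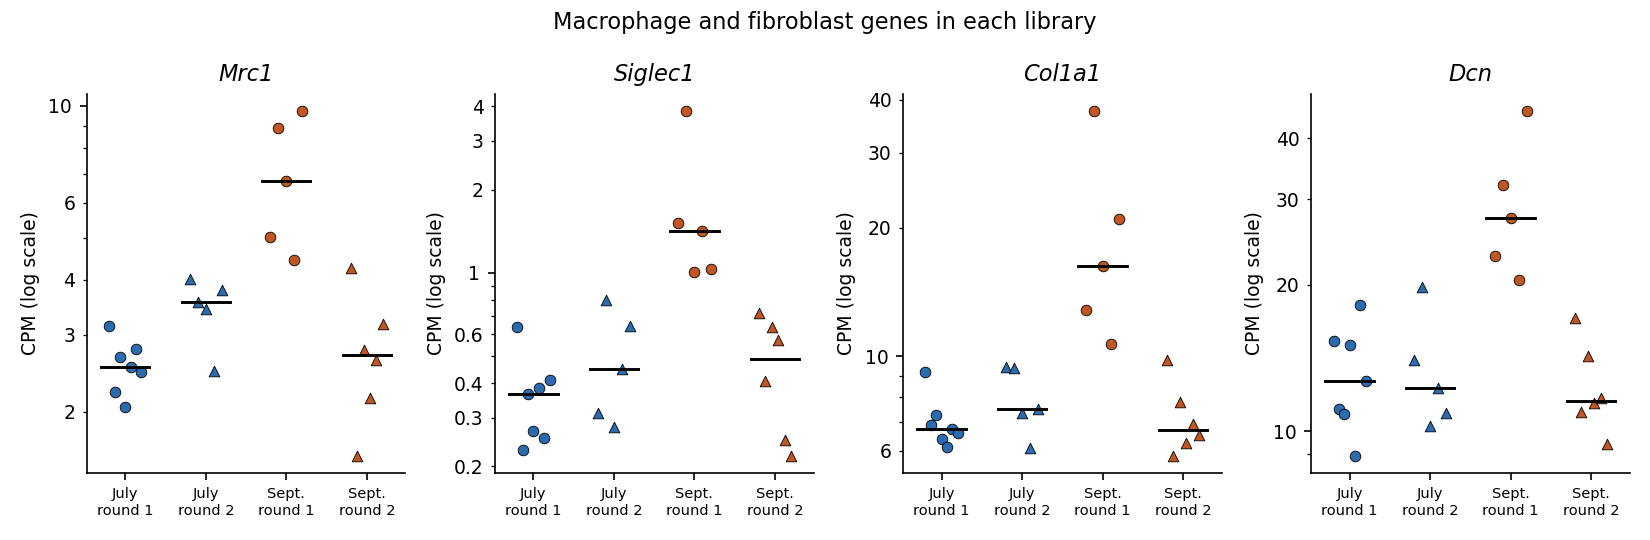
CPM of 2 macrophage genes (Mrc1, Siglec1) and 2 fibroblast genes (Col1a1, Dcn) in each of the 23 libraries on log axes, by month and extraction round, with the median of each set as a bar. The 5 September libraries of round 1 lie above all 18 others in each panel, and July and September overlap in round 2. The genes were picked after their values were seen.

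The count of 66 depended on single libraries. It fell to 8 without Control d14+3 replicate 3 (July), to 12 without ExpOF d14+3 replicate 1 (September), to 35 without Control d14 replicate 3 (July) and to 36 without ExpOF d14+3 replicate 2 (July), and was 105 without Control d14+3 replicate 5 (July, round 2). With all 24 libraries, which adds a round 2 library, it was 5, and offsets for gene length gave 41. Control d14+3 had 1 July library in round 1, replicate 3, and no diet-by-day group had more than 2 libraries of one month in one round.

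Neuropeptide genes and regional transcription factor genes of the hypothalamus had medians below 0 in September, without an adjusted call. Of 34 neuropeptide genes, 0 were higher and 5 lower in September at an unadjusted p under 0.05 (1.59% of all genes lower), with a median of -0.10 and 0 adjusted calls. In extraction round 1, 9 of 34 were lower at the unadjusted level (3.48% of all genes lower there), with a median of -0.17. In round 2 there were 0 (1.77%) and the median was 0.04. The interaction of month and round called 0 of the 34 after adjustment. With the rounds together, the lower members were Pdyn (prodynorphin, -0.16), Tac1 (substance P, -0.18), Pmch (melanin-concentrating hormone, -0.27), Agrp (agouti-related peptide, -0.28) and Avp (vasopressin, -0.42). Of these 5, Pmch differed by -0.46 in round 1 and by -0.03 in round 2. The other members were also below 0 in both rounds: Pdyn (-0.16 and -0.16), Tac1 (-0.26 and -0.10), Agrp (-0.35 and -0.20) and Avp (-0.54 and -0.24). Avp was at 33.4 to 196 CPM in July and 35.7 to 80.6 in September, with the 3 July values above 160 in Control groups. Its difference was -0.27 without Control d14+3 replicate 3, a July library of round 1, and 0.00 with all 24 libraries in the fit. Of 31 transcription factor genes that mark hypothalamic regions, 26 had values below 0, with a median of -0.12. At the unadjusted level 8 were lower (1.59% of all genes) and 2 higher (2.37%). In round 1, 4 were lower (3.48%), and in round 2, 1 was (1.77%), with medians of -0.08 and -0.09. Without the 2 choroid-rich libraries 5 were lower and 2 higher, with a median of -0.09. Otp, a factor of the anterior and paraventricular hypothalamus, differed by -0.19 and Hmx2, of the arcuate nucleus, by -0.37. Lhx8, on this list as well, differed by 0.49 (SE 0.181), with 2.92 to 8.66 CPM in July and 3.95 to 9.56 in September.

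**Figure D5:**
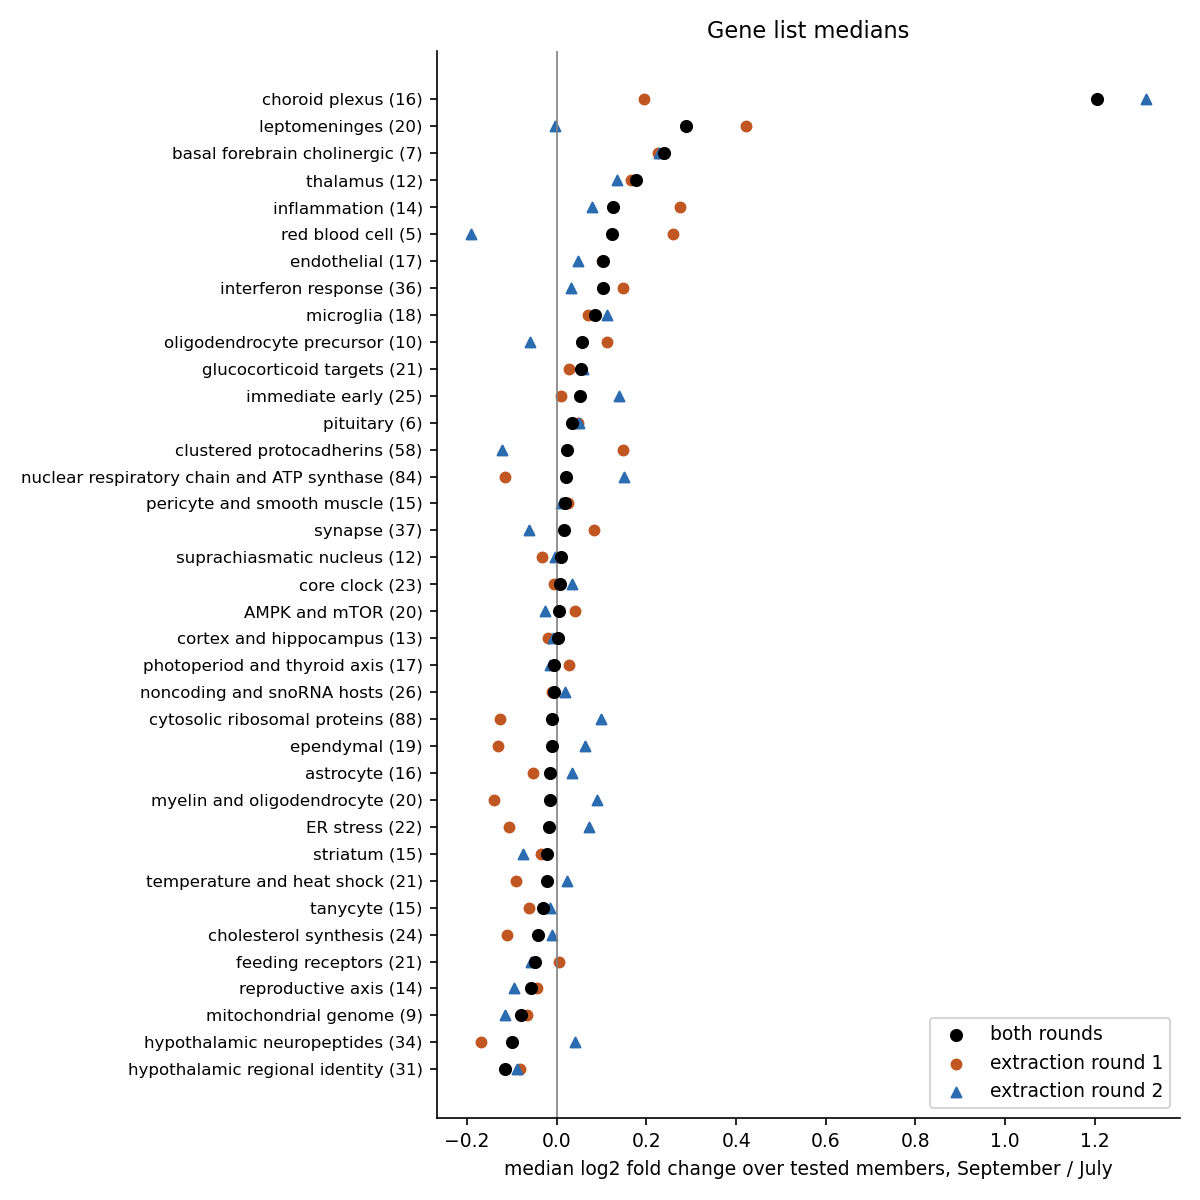
Median log2 fold change of September over July over the tested members of 37 gene lists (number tested in parentheses), for both rounds together (black circles), round 1 (orange circles) and round 2 (blue triangles). Choroid plexus at 1.20 and leptomeninges at 0.29 stand to the right, the former set by round 2 (1.31) and the latter by round 1 (0.42), and the core clock list is at 0.01.

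Over 37 gene lists, 0 had an adjusted call between the months. Cytosolic ribosomal protein genes (88 tested) had a median of -0.01 in both rounds together, -0.13 in round 1 and 0.10 in round 2, and nuclear respiratory chain genes (84 tested) 0.02, -0.12 and 0.15. Values within groups ran in opposite directions in the 2 groups at the extremes. In Control d14 the ribosomal protein median was -0.28 with 3 of 88 above 0, and in ExpOF d14+3 it was 0.33 with 87 of 88 above 0. The respiratory chain median was -0.17 (4 of 84 above 0) and 0.24 (82 of 84). ExpOF d14 and Control d14+3 lay between. Their ribosomal protein medians were -0.10 (10 of 88 above 0) and -0.02 (34 of 88). Their respiratory chain medians were -0.03 (29 of 84) and 0.007 (46 of 84). The RIN difference between the months was -1.5 in Control d14 and -0.2 in ExpOF d14+3, and its part in these values was not tested. Synapse genes (37 tested) ran the other way with 0.02, 0.08 and -0.06. Heat shock genes had 0 of 21 higher and 1 lower (Hspa1b, an inducible heat shock protein, at -0.42). Of 6 pituitary genes 1 was higher at the unadjusted level: Gh, growth hormone, was at 0 to 20.2 CPM in July and 0 to 93.7 in September, with 2033 counts in Control d14 replicate 1 and 0 counts in 10 of the 23 libraries.

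Apart from the lists, the 5 genes with the smallest p in each direction among those averaging at least 50 counts were small differences. Higher in September were Grk5, a receptor kinase (0.21), Irf5, an interferon regulatory factor of myeloid cells (0.32), Angptl2 (0.36), Sgpp2, a sphingosine phosphate phosphatase (0.18), and Emcn, endomucin of venous endothelium (0.22). Lower were Ap1g2 (-0.19), Cd24a (-0.19), Slc35b3 (-0.14), Mcm6, a subunit of the replicative helicase (-0.21), and Pdyn (-0.16). All 10 had the same sign in all 4 diet-by-day groups and an edgeR adjusted p of 1.00. The shared sign follows in part from choosing the genes by the difference over these groups together. Its share over all genes was not counted. Grk5 was at 17.7 to 30.5 CPM in July and 20.1 to 30.4 in September, overlapping over most of the range, and passed the threshold (edgeR adjusted p = 0.0284) only when ExpOF d14+3 replicate 6 was left out. Irf5 was at 3.55 to 5.66 CPM in July and 4.47 to 7.51 in September.

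The extraction rounds were compared in the same way, with month and group in the fit. With edgeR 0 genes differed after adjustment (858 unadjusted, 4.27%, of which 253 were higher in round 2 and 605 lower), whereas DESeq2 called 33, all lower in round 2. Leaving out Control d14+3 replicate 3 or replicate 5, both July, gave 39 and 54 edgeR calls.

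With month in the fit, the ExpOF against Control comparison on d14 gave 1 adjusted call with edgeR (0.00497% of genes, 4960 unadjusted, 24.7%), and it gave 1 without month. The gene was Npy (ENSMUSG00000029819, chr6:49822710-49829507), neuropeptide Y of the hunger-promoting arcuate neurons, which fell by 1.08 on the log2 scale in ExpOF mice (SE 0.118, edgeR adjusted p = 5.50e-05). Npy was at 28.2, 18.1 and 26.2 CPM in the July Control d14 libraries and at 12.3, 12.9 and 9.79 in the July ExpOF d14 libraries. In September it was at 21.5 and 26.4 in Control and at 10.1, 12.1 and 10.3 in ExpOF. The diets did not overlap in either month. Between months Npy differed by -0.10 (SE 0.082, edgeR unadjusted p = 0.231). Agrp, co-expressed in those neurons, was at 11.04, 5.84 and 10.1 CPM in July Control d14 and 5.51, 5.17 and 4.39 in July ExpOF d14, and at 6.40 and 9.26 against 4.17, 4.04 and 4.33 in September. On d14+3, 0 genes passed with edgeR (1394 unadjusted, 6.93%) with or without month, and DESeq2 called 24. Npy still differed there by -0.56 on the log2 scale in ExpOF mice (edgeR unadjusted p = 5.39e-05, adjusted p = 0.235). Agrp differed by -0.14 (edgeR unadjusted p = 0.369).

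The number of calls on d14 depended on a single library. It was 4397 without Control d14 replicate 1, a September library of round 1, and between 1 and 3 when any other library was left out, whereas DESeq2 called 116. That library also held the highest Gh level.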

How the data were processed

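Hypothalamic RNA was sequenced by the study as poly-A selected, 51-base paired-end libraries. Per the labels and the study's methods, the authors aligned reads with STAR to mm10 and counted them per gene with featureCounts 1.6.4, and deposited raw counts for 55471 genes; whether counting used strand is not given in the sources used here, so genes overlapping another on the opposite strand (among those named, Irf5, Angptl2, Grk5, Agrp and Pmch, for example) may share its counts. Here 20102 genes passed edgeR's filterByExpr. Counts were TMM-scaled and tested with edgeR 4.0.16 (robust quasi-likelihood) in R 4.3.3 with group and month as terms. CPM values use TMM factors from all 24 libraries. DESeq2 1.42.0 was an alternative. Single values used exact permutation of months within groups (80000 arrangements). Scripts were tested on simulated data. Mice were housed singly, and the labels do not say which shared a litter; p-values measure the spread between these samples. Members and gene lists were chosen with earlier results of these data known. Named genes were the 5 with the smallest p in each direction (mean of at least 50 counts), since 0 genes met the first rule, an adjusted call with one direction in all 4 groups, together with the clock and photoperiod lists, Npy and Agrp. Other genes, those called in extraction round 1 included, were named after their values were seen. Replicate numbers were not treated as pairs.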

Additional observations from a re-analysis of the deposited data

Results flagged for a closer look

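Values of 48 genes, RIN and library totals were screened for a library far from the rest of its diet-by-day group, which compares the gap to the nearest library with the whole range of the group (log2 of CPM + 1 for genes). Of 200 screens 29 stood out, 14.5%, where chance gives about 1 in 20, and most genes were chosen for their values. The July or September label of each library is given; the part of dissection, extraction or season was not tested.

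ExpOF d14+3 replicate 1 (September, round 1) was the highest of its group for 10 genes, with gap shares of 0.951 for Ccl8, 0.884 for Col1a1, 0.857 for F13a1, 0.801 for Bgn, 0.766 for Lum, 0.765 for Col1a2, 0.757 for Cbr2, 0.722 for Col4a1, 0.713 for Mrc1 and 0.632 for Col3a1. Control d14+3 replicate 1 (September, round 1) was the highest for Ccl8 (0.755), Cbr2 (0.726) and Siglec1 (0.662), ExpOF d14 replicate 3 (September, round 1) for Hspg2 (0.643) and Mrc1 (0.638), and Control d14 replicate 1 (September, round 1) for Ogn (0.714).

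Control d14 replicate 5 (September, round 2) was the highest of its group for Kcne2 (0.933), Ttr (0.857), Folr1 (0.841) and Kcnj13 (0.825) and the lowest for Cd24a (0.749). ExpOF d14+3 replicate 4 (September, round 2) was the highest for Folr1 (0.879), Kcne2 (0.836), Kcnj13 (0.831) and Ttr (0.642).

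The remaining ones were Avp, highest in Control d14+3 replicate 3 (July, 0.686), Gh, highest in ExpOF d14 replicate 4 (September, 0.653), Hmx2, highest in ExpOF d14 replicate 2 (July, 0.627), and Hlf, lowest in ExpOF d14+3 replicate 3 (July, 0.684).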

How the results depend on the processing

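September against July gave 0 adjusted calls under 13 of its 14 alternatives on the library set, scaling, filter, covariates or tool, and 19 in extraction round 1 only; leaving out single libraries gave 0 to 1. The replicate block left it at 0 (681 genes unadjusted) and changed no other call; it could not be fitted with the extraction rounds, since replicate numbers 1 to 3 were round 1 and 4 to 6 round 2. Replicate numbers did not pair the libraries: over 33 same-numbered pairs of different groups the deviations from group means correlated at a median of -0.04 (-0.24 to 0.33). The second component from the 500 most variable genes separated the months by 1.06 SD. Within Control d14, testing genes with at least 1 count gave 1 call and single libraries left out 0 to 34.

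DESeq2 called 33 genes for the extraction rounds, 116 and 24 for ExpOF against Control on d14 and d14+3, 48 for the month-by-round product, 153 for month in round 1 and 1 in round 2. Testing genes with at least 1 count gave 240 for the rounds, 639 for the product, 597 in round 1, 105 in round 2 and 2 for d14. With at least 10 counts in every library the product had 2 calls, and with RIN as a covariate 3. RIN as a covariate gave 2 on d14+3 and RIN of at least 9 gave 1241, with no September Control d14 library left. In round 1, RIN of at least 9 gave 102 calls, length offsets 41 and all 24 libraries 5. Leaving out single libraries gave 0 to 54 for the rounds, 1 to 4397 for d14, 0 to 3 for the product and 8 to 105 for month in round 1. The causes were not tested.

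In round 2 only, the month difference was below 0 for C3 (-0.50), Cbr2 (-0.57), Ccl8 (-0.82), Col3a1 (-0.71), Mrc1 (-0.38), F13a1 (-0.30), Lum (-0.19), Col1a1 (-0.13), Lamc1 (-0.11), Col4a1 (-0.10), Siglec1 (-0.089), Bgn (-0.081), Dcn (-0.059), Cdh5 (-0.036) and Dio2 (-0.0071), and above 0 for Npy (0.062) and Pmch (0.018). With all 24 libraries Npy was at 0.025 and Avp at 0.0040. Folr1 was at -0.89 in round 1 only and at -0.41 without the 2 choroid-rich libraries, an alternative chosen, like the month-by-round fit, after seeing the data. For genes whose interval reached beyond 0.5 log2 units, mostly those of few counts, smaller differences were not detectable at this depth.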
